A study of Mus musculus with 12 samples.

Results

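The mouse mitochondrial genome carries 37 genes, and all of them were listed among the 55335 genes counted in each library: 13 protein genes, 2 rRNA genes and 22 tRNA genes. They were chosen by position, as every gene that the GENCODE M21 annotation (GRCm38) places on chromosome M, and were matched by Ensembl identifier. RNA came from cardiomyocytes of male mice, 7 to 8 weeks old, kept for 7 weeks on their diets. Libraries of 4 kinds were compared by their labels: ApoE KO mice (B6.129P2-Apoe tm1Unc/J) on a high fat Western diet with 0.21% cholesterol (ApoeKO_HFD, 3 libraries), ApoE KO mice on chow (ApoeKO_CD, 3), wild-type C57BL/6J mice on the high fat diet (WT_HFD, 2 used of 3) and C57BL/6J mice on chow (WT_CD, 3). Apoe itself went against the genotype labels on chow, with 1.94 to 3.16 scaled counts per 1e6 (CPM) in ApoeKO_HFD, 6.93 to 25.3 in ApoeKO_CD, 8.44 to 18.9 in WT_HFD and 2.12 to 3.61 in WT_CD. Every group below is therefore named by its label, and no genotype is read from it. The labels do not say whether a library is 1 animal, and every p-value below therefore reflects only how far apart these libraries lie, which may be technical.

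The mitochondrial genome encodes core subunits of the respiratory chain (complexes I, III and IV) and of ATP synthase (complex V), with the rRNAs and tRNAs that translate them inside the organelle. Both DNA strands are transcribed by the polymerase POLRMT into long precursors in which tRNAs lie between the other genes. RNase P and the RNase Z enzyme ELAC2 cut at the ends of the tRNAs and so release rRNAs, mRNAs and tRNAs. Cardiac muscle is among the tissues richest in mitochondria, and its RNA is accordingly rich in these transcripts. Nuclear chromosomes also hold copies of mitochondrial DNA, annotated as pseudogenes, from which a short read may be impossible to tell apart.

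Over 6 comparisons, edgeR's quasi-likelihood test called no protein or rRNA gene of the mitochondrial genome at an adjusted p under 0.05. Of all tested genes it called only 0.0472 to 0.508% in a comparison, so the lack of such calls is not particular to these genes. The mitochondrial genes it called were the tRNA genes mt-Ti, mt-Tm and mt-Tf, all on the plus strand and all lower in groups set against WT_CD.

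The 11 libraries held 22130323 to 46424614 counts each, with a median of 34155552, and at least 9340449 of them lay on nuclear genes. Cardiomyocyte markers were high in every library: the 8 markers listed (such as Myh6 and Tnnt2) summed to 38080 to 51830 CPM after scaling by the trimmed mean of M values (TMM). Fibroblast markers summed to 8.30 to 19.0, macrophage markers to 3.69 to 20.2 and endothelial markers to 52.8 to 141 on that scale. All values below are TMM-scaled CPM unless another scale is named.

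Mitochondrial genes held more counts than all nuclear genes together in each library. Their share of all gene counts averaged 63.6 ± 7.94% in ApoeKO_HFD (SD, n = 3), 59.5 ± 9.06% in ApoeKO_CD (n = 3), 65.8 ± 1.56% in WT_HFD (n = 2) and 61.5 ± 3.71% in WT_CD (n = 3). The 3 libraries of ApoeKO_HFD stood at 55.4, 71.3 and 64.0%, those of ApoeKO_CD at 69.3, 57.8 and 51.5%, those of WT_HFD at 66.9 and 64.6%, and those of WT_CD at 62.9, 57.4 and 64.4%. Both WT_HFD libraries lay above the 3 WT_CD libraries, by a margin smaller than the spread within either group, and every other pair of groups overlapped. The differences of means were 2.05 percentage points for ApoeKO_HFD over WT_CD, 4.06 for ApoeKO_HFD over ApoeKO_CD, 4.21 for WT_HFD over WT_CD, −2.01 for ApoeKO_CD over WT_CD and −2.17 for ApoeKO_HFD over WT_HFD, each smaller than the pooled SD of 6.76 points. In such bulk RNA, fewer cells of a type and less RNA per cell cannot be told apart.

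**Figure D1:**
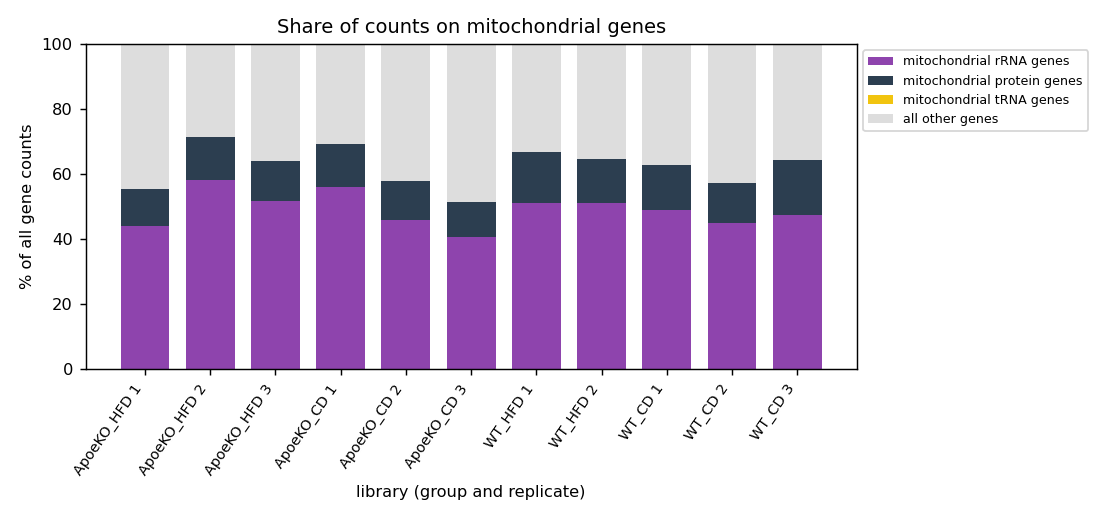
Share of all gene counts (percent, vertical axis) on mitochondrial rRNA, protein and tRNA genes and on all other genes in each of 11 libraries (horizontal axis). The mitochondrial share runs from 51.5% to 71.3% and overlaps between groups except that both WT_HFD libraries lie above WT_CD, and the tRNA layer, at most 0.0226% of the counts, is too thin to read.

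Ribosomal RNA made up most of the mitochondrial counts. The 2 rRNA genes held 73.6 to 81.7% of them, the 13 protein genes 18.3 to 26.4% and the 22 tRNA genes 0.0153 to 0.0359%. The rRNA portion was 79.7, 81.7 and 80.5% in ApoeKO_HFD, 80.8, 79.5 and 78.9% in ApoeKO_CD, 76.3 and 78.9% in WT_HFD and 77.8, 78.6 and 73.6% in WT_CD. The lowest of the 6 libraries with the knockout label and the highest of the 5 with the wild-type label both stood at 78.9%, and this ratio was given no test. Genes on the minus strand, which carries mt-Nd6 and 8 tRNA genes, took 0.166 to 0.367% of the mitochondrial counts.

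Per kilobase of gene, the order of levels was mt-Rnr2 and mt-Rnr1 (the large and small rRNA), then mt-Co1, mt-Cytb, mt-Nd1, mt-Nd5, mt-Nd2, mt-Nd4, mt-Nd6 and mt-Nd3. The ranges over libraries of neighbouring genes overlapped from mt-Co1 down to mt-Nd4, whereas mt-Rnr1 stayed above mt-Co1 and mt-Nd4 above mt-Nd6. Relative to mt-Co1, which encodes the catalytic subunit of complex IV, the median level per kilobase was 814% for mt-Rnr2 (563 to 1011% over 11 libraries), 598% for mt-Rnr1 and 77.5% for mt-Cytb. It was 65.5% for mt-Nd1, 46.8% for mt-Nd5, 41.4% for mt-Nd2, 27.0% for mt-Nd4 and 7.98% for mt-Nd6. The other 6 protein genes lay far below these: mt-Nd3 at 3.45%, mt-Nd4l at 0.399%, mt-Atp6 at 0.388%, mt-Co2 at 0.369%, mt-Co3 at 0.320% and mt-Atp8 at 0.117%. All 6 are neighbours on the genome.

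**Figure D2:**
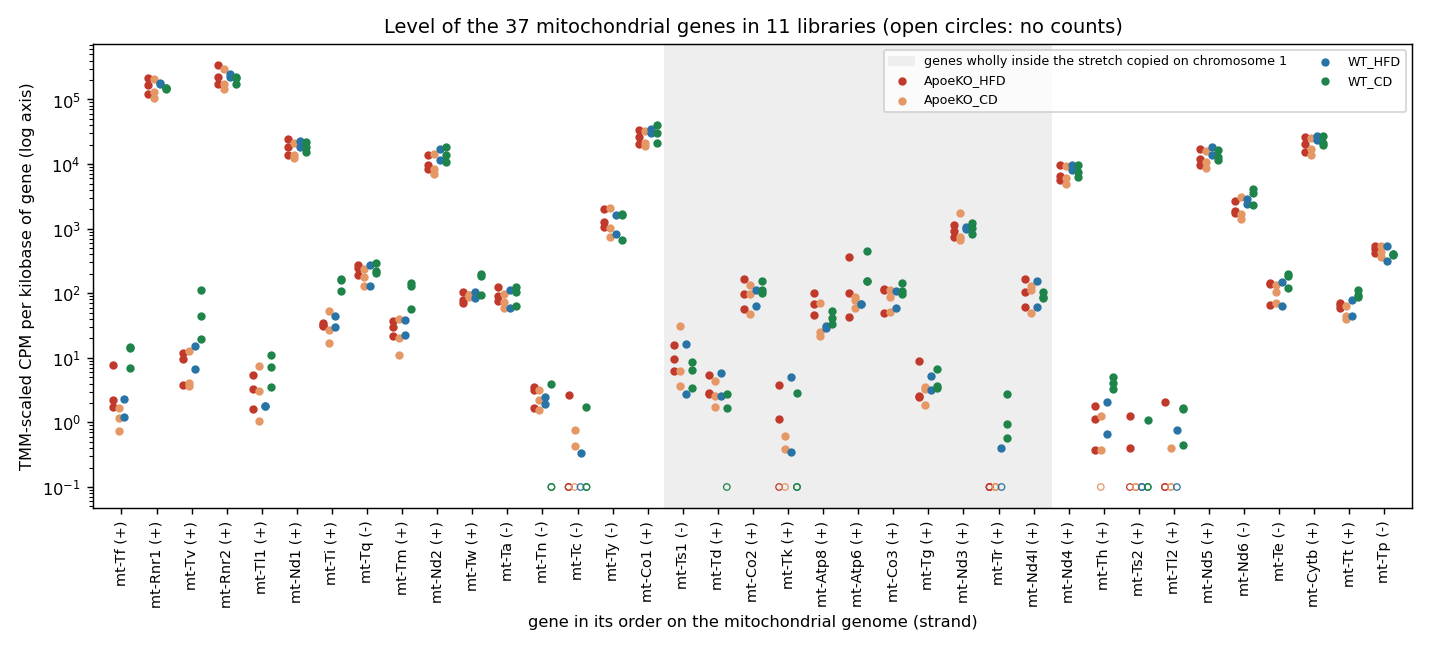
TMM-scaled CPM per kilobase of gene (log axis) for the 37 mitochondrial genes in genome order, with 1 point per library coloured by group, and open circles at the bottom for libraries with no counts. The grey band marks the 11 genes wholly inside the stretch that is copied on chromosome 1; mt-Co2, mt-Atp8, mt-Atp6, mt-Co3 and mt-Nd4l inside it have medians of at most 0.399% of mt-Co1.

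Those 6 genes are also the protein genes that lie wholly inside a stretch of mitochondrial DNA copied into the nuclear genome. A row of 7 annotated pseudogenes at chr1:24611535-24616197 (GRCm38, minus strand) followed the order of chrM:6390-11042, and 11 of the 37 genes lie wholly within it: these 6 and mt-Ts1, mt-Td, mt-Tk, mt-Tg and mt-Tr. No difference was found between mt-Co2 and Gm28661 over 681 bases, mt-Atp6 and Gm10925 over 678, mt-Co3 and Gm28437 over 783, mt-Nd4l and Gm10222 over 294, or mt-Nd4 and Gm28439 over the 876 bases that the copy holds. mt-Nd3, a subunit of complex I, and its copy Gm28438 differed at 1 of 345 bases, the substitution T3C, counted from 1 at the 5′ end of the gene with the mitochondrial base first. mt-Co1 and Gm29216 differed at 1 of 483 bases (A1066T). The first 120 bases of mt-Nd3 (chrM:9459-9578, plus strand) and of Gm28438 (chr1:24613000-24613119, minus strand), from the GENCODE M21 transcripts, are shown because they hold the 1 differing base of the 345 compared, in capitals.
mt-Nd3: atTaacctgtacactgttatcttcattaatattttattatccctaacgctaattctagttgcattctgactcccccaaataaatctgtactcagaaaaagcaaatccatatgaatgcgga
Gm28438: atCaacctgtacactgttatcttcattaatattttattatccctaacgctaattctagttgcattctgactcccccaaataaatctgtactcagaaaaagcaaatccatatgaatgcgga

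The share of sequence that a read could find in an annotated nuclear transcript varied widely between genes. Of all windows of 50 bases, 100% were shared for mt-Co2, 99.9% for mt-Co3, 99.5% for mt-Atp6, 98.8% for mt-Nd4l and 98.0% for mt-Nd3. For mt-Nd4 62.2% and for mt-Co1 51.1% were shared, for mt-Nd2 8.19%, for mt-Nd5 7.61% and for mt-Rnr2 1.04%. No window of mt-Rnr1, mt-Nd1, mt-Nd6, mt-Cytb or any tRNA gene was. mt-Atp8, which encodes a small subunit of ATP synthase, shared no window with an annotated transcript, but it sits between mt-Co2 and mt-Atp6 inside the copied span and 43 of its 204 bases also belong to mt-Atp6. It is shown whole (chrM:7766-7969, plus strand, GENCODE M21), with the bases it has in common with mt-Atp6 in capitals.
mt-Atp8: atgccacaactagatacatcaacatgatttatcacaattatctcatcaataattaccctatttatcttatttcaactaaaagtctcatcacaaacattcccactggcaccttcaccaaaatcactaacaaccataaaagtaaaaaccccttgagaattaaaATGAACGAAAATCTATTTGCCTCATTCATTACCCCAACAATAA

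**Figure D3:**
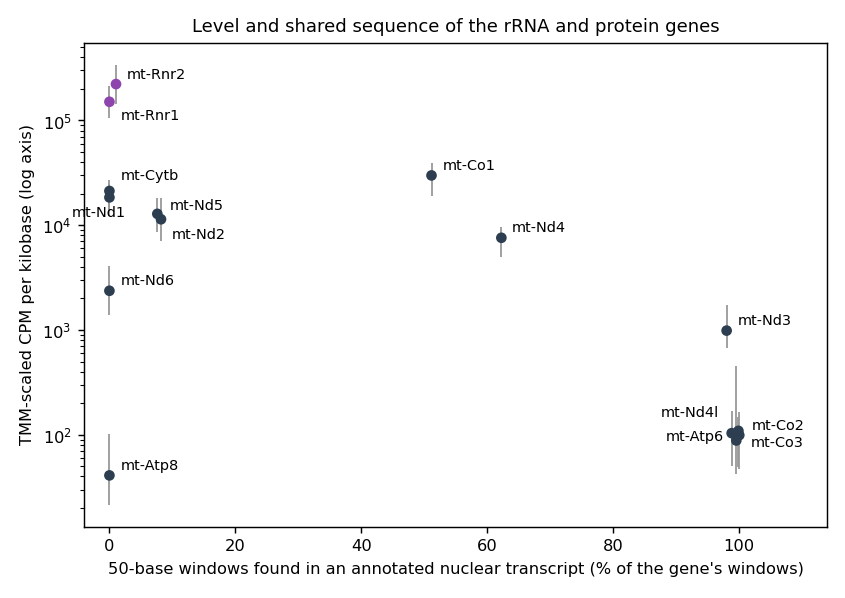
TMM-scaled CPM per kilobase (log axis; point, median of 11 libraries; bar, lowest to highest) against the percent of a gene's windows of 50 bases found in an annotated nuclear transcript, for the 2 rRNA genes (purple) and 13 protein genes (dark). The 5 genes with 98.0% or more of their windows shared have lower medians than the other genes except mt-Atp8, and mt-Nd3 is the highest of those 5.

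The pseudogenes themselves held counts in every library. Of the counts on mt-Co2 and Gm28661 together, the copy had 41.8 to 61.4%, and the share of the copy was 23.9 to 47.9% for mt-Co3, 14.2 to 38.3% for mt-Nd4l and 19.5 to 91.0% for mt-Atp6. The highest of these, 91.0%, was WT_HFD replicate 1, where Gm10925 had 16952 counts. For mt-Nd3 the copy had 0.654 to 1.93%, for mt-Nd4 0.198 to 0.514% and for mt-Co1 0.0583 to 0.150%. All 7 copies together took 0.0188 to 0.0601% of the counts of a library. How HTSeq treated reads that fit several places, or that touch more than 1 gene, is not given in the sources used here, so the levels of the genes inside the copied span are uncertain and cannot be set against those of the other genes. mt-Co1 and mt-Nd4 lie partly inside it, so their levels, and the levels given relative to mt-Co1, may be affected too. The 6 protein genes wholly inside the span also varied more between libraries: their pooled SD within groups of log2(CPM + 0.5) was 0.464 to 0.965 (median 0.61). It was 0.339 to 0.440 (median 0.37) for the 9 rRNA and protein genes not wholly inside the span, which include mt-Co1 and mt-Nd4. All 16932 genes tested had a median of 0.24.

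The complex I subunits of the mitochondrial genome include the membrane-arm proteins mt-Nd1, mt-Nd2, mt-Nd4 and mt-Nd5. mt-Nd1 had 13394, 23588 and 17381 CPM in ApoeKO_HFD, 20355, 13389 and 11718 in ApoeKO_CD, 21424 and 17834 in WT_HFD and 17637, 14955 and 21258 in WT_CD. mt-Nd5 had 17662, 30699 and 21619 CPM in ApoeKO_HFD, 28948, 19892 and 15577 in ApoeKO_CD, 33096 and 25148 in WT_HFD and 23425, 21119 and 30421 in WT_CD. For both genes each group overlapped every other. mt-Nd2 had 8662, 14504 and 10216 CPM in ApoeKO_HFD, 14928, 8718 and 7350.2 in ApoeKO_CD, 17450.0 and 11834 in WT_HFD and 14212, 11005 and 18967 in WT_CD. mt-Nd4 had 7782, 13208 and 9086 CPM in ApoeKO_HFD, 12869, 8336 and 6801 in ApoeKO_CD, 13195 and 11088 in WT_HFD and 10454, 8705 and 13138 in WT_CD. ApoeKO_HFD replicate 2 and ApoeKO_CD replicate 1 were the highest of their groups for all 4 genes.

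The other complex I genes are mt-Nd6, alone among the protein genes on the minus strand, and mt-Nd3 and mt-Nd4l inside the copied span. mt-Nd6 had 961, 1380.1 and 918 CPM in ApoeKO_HFD, 1630.1, 879 and 723 in ApoeKO_CD, 1469 and 1229 in WT_HFD and 2121, 1205 and 1857 in WT_CD. It shares 14 bases with the opposite strand of mt-Nd5. mt-Nd3 had 256, 397 and 318 CPM in ApoeKO_HFD, 602, 254 and 232 in ApoeKO_CD, 365 and 343 in WT_HFD and 359, 292 and 428 in WT_CD. mt-Nd4l had 18.2, 49.5 and 30.8 CPM in ApoeKO_HFD, 38.4, 33.0 and 14.9 in ApoeKO_CD, 18.1 and 46.5 in WT_HFD and 25.0, 30.8 and 25.98 in WT_CD. No 2 groups were separated for mt-Nd3 or mt-Nd4l.

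Cytochrome b, the single mitochondrially encoded subunit of complex III, and the 3 complex IV subunits overlapped between groups as well. mt-Cytb had 17435, 29909 and 23149 CPM in ApoeKO_HFD, 29102, 19516 and 15812 in ApoeKO_CD, 30755 and 26734 in WT_HFD and 24283, 22876 and 30617 in WT_CD. mt-Co1 had 31967, 52101 and 40101 CPM in ApoeKO_HFD, 49762, 33009 and 29186 in ApoeKO_CD, 54804 and 46168 in WT_HFD and 46271, 33158 and 61097 in WT_CD. Neither gene separated the diets within a genotype label. mt-Co2, which carries the copper site that takes electrons from cytochrome c, had 38.9, 113 and 65.5 CPM in ApoeKO_HFD, 92.6, 65.5 and 32.4 in ApoeKO_CD, 43.4 and 76.5 in WT_HFD and 67.8, 107 and 75.4 in WT_CD. mt-Co3 had 38.5, 92.7 and 89.3 CPM in ApoeKO_HFD, 67.9, 89.4 and 40.4 in ApoeKO_CD, 47.0 and 85.5 in WT_HFD and 75.2, 115 and 85.4 in WT_CD. Both lie inside the copied span.

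Of the ATP synthase subunits, mt-Atp6 had the largest pooled SD within groups of the 31 tested genes, 0.97 on the log2 scale, and mt-Atp8 had 0.59. mt-Atp6, part of the proton channel, had 29.0, 247 and 68.5 CPM in ApoeKO_HFD, 60.0, 40.9 and 53.4 in ApoeKO_CD, 45.8 and 46.2 in WT_HFD and 311, 105 and 107 in WT_CD. All 3 WT_CD libraries were above both WT_HFD and all ApoeKO_CD libraries, and ApoeKO_HFD spanned nearly the whole range. mt-Atp8 had 13.9, 20.9 and 9.44 CPM in ApoeKO_HFD, 14.6, 5.09 and 4.38 in ApoeKO_CD, 5.97 and 6.46 in WT_HFD and 6.83, 10.8 and 8.35 in WT_CD. Both are inside the copied span, where counts are uncertain.

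The rRNAs form the small and large subunit of the mitochondrial ribosome. mt-Rnr1 had 114500, 202950 and 157910 CPM in ApoeKO_HFD, 194970, 126590 and 101460 in ApoeKO_CD, 167890 and 170730 in WT_HFD and 143470, 140750 and 144030 in WT_CD. mt-Rnr2 had 270820, 539170 and 352000 CPM in ApoeKO_HFD, 472410, 277610 and 226650 in ApoeKO_CD, 387280 and 356730 in WT_HFD and 345250, 276300 and 352010 in WT_CD. Both WT_HFD libraries were above all WT_CD libraries for both rRNAs. Each knockout-labelled group ranged from below all wild-type-labelled libraries to above all of them.

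The summed level of the plus-strand tRNA genes was higher in all WT_CD libraries than in the others, and that of the minus-strand tRNA genes was not. The tRNA genes are 59 to 75 bases long and a read longer than its gene reaches into the neighbours, so these counts depend on how such reads were assigned. The 14 tRNA genes on the plus strand summed to 16.1, 18.2 and 14.7 CPM in ApoeKO_HFD, 19.1, 13.4 and 11.4 in ApoeKO_CD, 16.7 and 17.2 in WT_HFD and 44.4, 39.2 and 39.7 in WT_CD. The lowest WT_CD library, at 39.2, thus lay above the highest of the others, at 19.1. The 8 tRNA genes on the minus strand summed to 140, 207 and 134 CPM in ApoeKO_HFD, 213, 124 and 92.8 in ApoeKO_CD, 94.7 and 182 in WT_HFD and 181, 109 and 166 in WT_CD, with all groups overlapping. Plus-strand genes made up 8.07 to 10.3% of tRNA counts in ApoeKO_HFD, 8.22 to 10.97% in ApoeKO_CD, 8.62 to 14.97% in WT_HFD and 19.3 to 26.5% in WT_CD.

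Shown in full are the 5 plus-strand tRNA genes for which every WT_CD library lay above the 8 others (mt-Tv, mt-Ti, mt-Tm, mt-Th and mt-Tt), with mt-Tf, which was called below, and mt-Tw, whose WT_CD libraries overlapped the rest. They are taken from the GENCODE M21 transcripts, with the anticodon in capitals. mt-Tf (phenylalanine, chrM:1-68) is the first gene of the chromosome's numbering, mt-Tv (valine, chrM:1025-1093) lies between the rRNA genes, mt-Ti (isoleucine, chrM:3706-3774) and mt-Tm (methionine, chrM:3845-3913) lie between mt-Nd1 and mt-Nd2, and mt-Tw (tryptophan, chrM:4950-5016) follows mt-Nd2. mt-Th (histidine, chrM:11546-11612) follows mt-Nd4, and mt-Tt (threonine, chrM:15289-15355) follows mt-Cytb.
mt-Tf: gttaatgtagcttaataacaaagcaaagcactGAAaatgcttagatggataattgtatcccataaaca
mt-Tv: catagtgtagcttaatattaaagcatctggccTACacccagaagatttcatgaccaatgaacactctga
mt-Ti: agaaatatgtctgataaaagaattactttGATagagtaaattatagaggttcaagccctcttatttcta
mt-Tm: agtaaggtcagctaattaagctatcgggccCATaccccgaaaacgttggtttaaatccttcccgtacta
mt-Tw: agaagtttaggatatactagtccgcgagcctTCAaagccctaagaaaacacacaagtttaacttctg
mt-Th: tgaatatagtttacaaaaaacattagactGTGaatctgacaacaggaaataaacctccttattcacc
mt-Tt: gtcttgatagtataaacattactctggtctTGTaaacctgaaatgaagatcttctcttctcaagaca

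A further 3 tRNA genes, of the minus strand, are set beside them because they hold most of the tRNA counts without following the difference: mt-Tq (glutamine, chrM:3772-3842), which shares its last 3 bases with the opposite strand of mt-Ti, mt-Ty (tyrosine, chrM:5260-5326) and mt-Tp (proline, chrM:15356-15422). Each is written 5′ to 3′ along its own strand.
mt-Tq: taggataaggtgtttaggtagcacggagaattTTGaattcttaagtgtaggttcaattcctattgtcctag
mt-Ty: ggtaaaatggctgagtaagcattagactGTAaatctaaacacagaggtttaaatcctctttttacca
mt-Tp: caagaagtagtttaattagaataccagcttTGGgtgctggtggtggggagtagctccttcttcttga

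mt-Ti had 2.15, 2.39 and 2.25 CPM in ApoeKO_HFD, 3.63, 1.83 and 1.19 in ApoeKO_CD, 3.10 and 2.05 in WT_HFD and 11.4, 11.1 and 7.48 in WT_CD, from 46 to 360 counts a library. mt-Tm had 1.51, 2.58 and 2.05 CPM in ApoeKO_HFD, 2.73, 1.39 and 0.759 in ApoeKO_CD, 2.63 and 1.54 in WT_HFD and 8.82, 3.88 and 9.89 in WT_CD. For both, the lowest WT_CD library lay above the highest of the other 8. mt-Tv had 0.263, 0.821 and 0.651 CPM in ApoeKO_HFD, 0.872, 0.278 and 0.253 in ApoeKO_CD, 1.07 and 0.468 in WT_HFD and 3.10, 1.33 and 7.63 in WT_CD. mt-Tf had 0.120, 0.522 and 0.150 CPM in ApoeKO_HFD, 0.113, 0.0795 and 0.0506 in ApoeKO_CD, 0.0822 and 0.156 in WT_HFD and 0.980, 0.471 and 1.01 in WT_CD, from as few as 2 counts. mt-Tv separated WT_CD from all others, whereas for mt-Tf 1 ApoeKO_HFD library lay above the lowest WT_CD library.

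Among the other plus-strand tRNA genes, mt-Tt (threonine) had 4.40, 4.78 and 4.01 CPM in ApoeKO_HFD, 4.28, 2.98 and 2.71 in ApoeKO_CD, 2.93 and 5.28 in WT_HFD and 6.39, 7.42 and 5.79 in WT_CD. mt-Tw had 7.03, 5.34 and 4.68 CPM in ApoeKO_HFD, 6.24, 6.40 and 5.89 in ApoeKO_CD, 5.56 and 6.95 in WT_HFD and 12.4, 13.4 and 6.35 in WT_CD. WT_CD stood clear of the rest for mt-Tt, and 2 of its 3 libraries did for mt-Tw. mt-Th (histidine) had 0.120, 0.0746 and 0.0250 CPM in ApoeKO_HFD, 0.0844, 0 and 0.0253 in ApoeKO_CD, 0.137 and 0.0445 in WT_HFD and 0.221, 0.275 and 0.338 in WT_CD, from at most 9 counts. mt-Tl1 (leucine) had 0.120, 0.411 and 0.250 CPM in ApoeKO_HFD, 0.563, 0.0795 and 0.228 in ApoeKO_CD, 0.137 and 0.134 in WT_HFD and 0.538, 0.824 and 0.263 in WT_CD. mt-Th separated WT_CD from the rest, and mt-Tl1 did not. The tested plus-strand genes mt-Td and mt-Tg, both inside the copied span, had at most 16 counts in any library.

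On the minus strand, mt-Ty had 83.7, 133 and 72.1 CPM in ApoeKO_HFD, 142, 69.3 and 49.7 in ApoeKO_CD, 55.4 and 107 in WT_HFD and 111, 45.4 and 111 in WT_CD. mt-Tp had 32.1, 35.7 and 28.2 CPM in ApoeKO_HFD, 35.5, 29.6 and 24.4 in ApoeKO_CD, 21.5 and 35.9 in WT_HFD and 27.3, 27.0 and 26.2 in WT_CD. mt-Tq had 13.8, 19.1 and 17.4 CPM in ApoeKO_HFD, 17.1, 12.6 and 9.03 in ApoeKO_CD, 9.07 and 19.4 in WT_HFD and 20.6, 15.6 and 14.8 in WT_CD. For each of the 3 genes, WT_CD overlapped the range of the other libraries, although all ApoeKO_HFD libraries were above WT_CD for mt-Tp. The remaining tested genes of this strand had 4.08 to 8.55 CPM (mt-Ta, alanine), 4.44 to 13.6 (mt-Te, glutamate) and 0.192 to 2.17 (mt-Ts1, serine) over the 11 libraries. mt-Te had 13.6, 12.87 and 8.42 CPM in WT_CD and at most 10.35 elsewhere, so WT_CD replicates 1 and 2 stood clear of the rest. Against WT_CD its log2 changes were −0.56 in ApoeKO_HFD, −0.70 in ApoeKO_CD and −0.65 in WT_HFD, and none passed edgeR's test. Those of mt-Tp and mt-Ts1 were above 0 in the same comparisons. Over both strands, 16 tRNA genes had enough counts to be tested, and mt-Tn, mt-Tc, mt-Tk, mt-Tr, mt-Ts2 and mt-Tl2, with 0 to 12 counts a library, did not pass the filter on low counts.

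**Figure D4:**
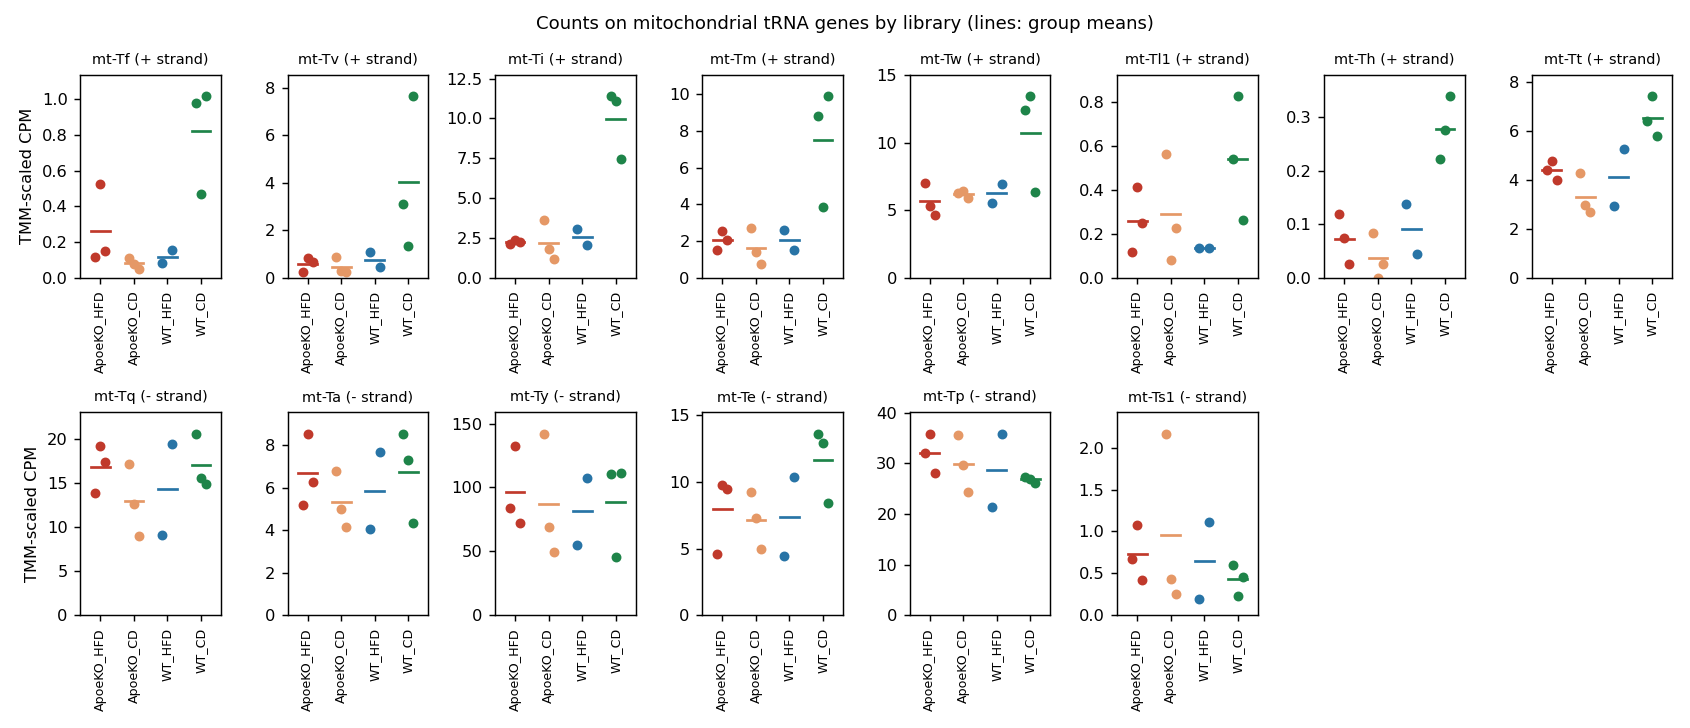
TMM-scaled CPM (vertical axes, each from 0) of 8 plus-strand tRNA genes (top) and 6 minus-strand tRNA genes (bottom) in ApoeKO_HFD, ApoeKO_CD, WT_HFD and WT_CD, with 1 point per library and a line at each group's mean. WT_CD is above all other libraries for mt-Tv, mt-Ti, mt-Tm, mt-Th and mt-Tt, and for none of the minus-strand genes.

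Across the 31 tested genes, all 3 WT_CD libraries lay above all 8 others for 5, each a plus-strand tRNA gene, and below all 8 others for 0. Of all 16932 tested genes, 3.13% had every WT_CD library above the 8 others and 3.95% every one below. This count was chosen after the values had been seen. The genes are 5 of the 10 tested plus-strand tRNA genes, 0 of 6 on the minus strand, 0 of 13 protein genes and 0 of 2 rRNA genes. mt-Th, among these 5, and mt-Tf passed the filter on low counts only through WT_CD, where they are high. The filter thus helped to set their part in these counts, in the plus-strand medians below and in the call of mt-Tf.

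ApoeKO_HFD set against WT_CD, genotype label and diet together, gave 1 called gene at an adjusted p under 0.05. mt-Ti fell 4.42-fold to 2.27 ± 0.118 CPM in ApoeKO_HFD, against 9.99 ± 2.18 in WT_CD (SD, n = 3 each; log2 change −2.14, SE 0.30, edgeR quasi-likelihood adjusted p = 0.0156), and was lower in 3 of 3 libraries. Among all tested genes 0.154% were called in this comparison and 0.124% were called lower. At an unadjusted p under 0.05 there were 7 of the 31, and 14.2% of all tested genes. The groups did not overlap for 7 of the 31, 5 of them lower in ApoeKO_HFD, against 15.6 and 7.22% of all tested genes. The next by p were mt-Tm (−1.90, SE 0.42, edgeR adjusted p = 0.102) and mt-Tv (−2.83, SE 0.64, adjusted p = 0.106), which did not pass. The 10 tested plus-strand tRNA genes had a median log2 change of −1.39 with 9 below 0, the 6 minus-strand tRNA genes 0.04 with 3 below 0, and all tested genes −0.01. The 13 protein genes had a median of −0.15 and ranged from −0.67 (mt-Nd6) to 0.76 (mt-Atp8), and none passed. The call of mt-Ti was lost without ApoeKO_HFD replicate 1, 2 or 3, each left out alone (edgeR adjusted p 0.0656, 0.0751 and 0.114), while its log2 change stayed between −2.32 and −2.04. Of all tested genes those fits called 0.00604, 0 and 0%, so the loss was not particular to mt-Ti.

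Chow alone under both genotype labels gave most calls. In ApoeKO_CD against WT_CD, 3 tRNA genes fell, with 0.508% of all tested genes called and 0.384% called lower. At an unadjusted p under 0.05 there were 8 of 31, against 15.9% of all tested genes. The groups did not overlap for 7 of 31, all lower in ApoeKO_CD, against 16.6% of all tested genes in either direction and 7.67% lower. mt-Ti fell 4.50-fold to 2.21 ± 1.26 CPM in ApoeKO_CD, against 9.99 ± 2.18 in WT_CD (n = 3 each; log2 change −2.17, SE 0.31, edgeR adjusted p = 0.00216). mt-Tm, the tRNA for methionine, fell 4.63-fold to 1.63 ± 1.01 CPM, against 7.53 ± 3.20 in WT_CD (−2.21, SE 0.43, adjusted p = 0.0371). mt-Tf fell 9.87-fold to 0.0809 ± 0.0310 CPM, against 0.822 ± 0.305 in WT_CD (−3.30, SE 0.72, adjusted p = 0.0448). Each was lower in 3 of 3 libraries. mt-Tf passed the filter on low counts only through WT_CD, where it is high. The median over plus-strand tRNA genes was −1.57, over minus-strand tRNA genes −0.19, over the protein genes −0.27 and over the rRNAs −0.01. mt-Ti stayed called when any 1 of the 11 libraries was left out, and mt-Tm and mt-Tf each lost the call in 6 of those 11 fits. For mt-Tm these left out WT_CD replicate 1 or 3, ApoeKO_CD replicate 2 or 3 or ApoeKO_HFD replicate 2 or 3, and for mt-Tf WT_CD replicate 1 or 3, any ApoeKO_CD replicate or ApoeKO_HFD replicate 3. With only the compared groups in the fit, edgeR's adjusted p was 0.0612 for mt-Tm and 0.0742 for mt-Tf. mt-Tf was also not called with a replicate block (edgeR adjusted p = 0.0753) or by voom (adjusted p = 0.0817), and DESeq2 gave it no adjusted p.

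The high fat diet under the wild-type label, WT_HFD against WT_CD, gave 1 called gene, again mt-Ti. It fell 3.90-fold to 2.57 ± 0.740 CPM in WT_HFD (n = 2), against 9.99 ± 2.18 in WT_CD (n = 3; log2 change −1.96, SE 0.35, edgeR adjusted p = 0.0221), lower in 2 of 2 libraries. Of all tested genes 0.207% were called and 0.154% called lower. At an unadjusted p under 0.05 there were 7 of 31, against 12.9% of all tested genes. The groups did not overlap for 11 of 31, 9 of them lower in WT_HFD, against 24.7 and 11.8% of all tested genes. mt-Tm (−1.86, SE 0.48, adjusted p = 0.172) and mt-Tf (−2.73, SE 0.78, adjusted p = 0.191) followed without passing edgeR's test. The median over plus-strand tRNA genes was −1.74 and over minus-strand tRNA genes −0.16. The call of mt-Ti was lost without WT_CD replicate 1 (edgeR adjusted p = 0.0813), where 0.194% of all tested genes were called. It was also lost without either WT_HFD replicate, which leaves 1 library in that group. Over the 11 fits that each left out 1 library, its log2 change stayed between −2.24 and −1.65. These 3 comparisons share the WT_CD libraries, so the fall of mt-Ti in each of them is not 3 separate observations.

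**Figure D5:**
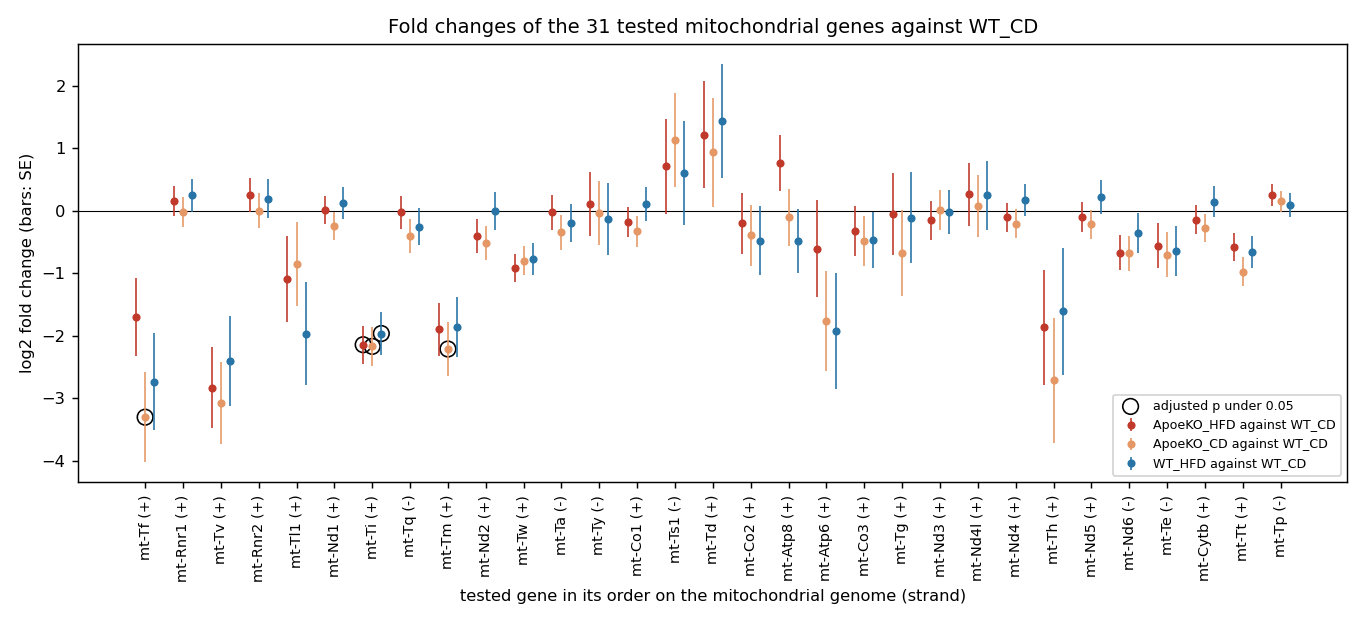
Log2 fold change (point) and SE (bar) of the 31 tested mitochondrial genes in genome order, for ApoeKO_HFD, ApoeKO_CD and WT_HFD, each against WT_CD; black rings mark an adjusted p under 0.05 in edgeR's quasi-likelihood test. The rings lie on mt-Ti in all 3 comparisons and on mt-Tm and mt-Tf in ApoeKO_CD, while the rRNA genes and most protein genes lie near 0.

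Where WT_CD took no part, nothing was called. ApoeKO_HFD against ApoeKO_CD, the diet under the knockout label, called 0 of 31 genes by edgeR and 0 by DESeq2 or voom. Of all tested genes edgeR called 0.0709% and called 0.0177% lower, while DESeq2 called 0.0347% and voom 0.136%. Only mt-Tf had an unadjusted p under 0.05, against 1.53% of all tested genes. The groups did not overlap for 1 of 31, the same gene, and for 0 with the lower values in ApoeKO_HFD, against 9.03 and 3.99% of all tested genes. The 3 of smallest p were mt-Tf (1.60, SE 0.76), mt-Atp8 (0.87, SE 0.45) and mt-Tt (0.40, SE 0.23), with an edgeR adjusted p of 1.00 for each. mt-Ti had a log2 change of 0.03. ApoeKO_HFD against WT_HFD, the genotype label on the high fat diet, likewise called 0 genes by edgeR, DESeq2 or voom. Of all tested genes edgeR called 0.0472% and called 0.0177% lower, while DESeq2 called 0.049% and voom 0.248%. Only mt-Atp8 had an unadjusted p under 0.05, against 2.83% of all tested genes. The groups did not overlap for that 1 gene and for 0 with the lower values in ApoeKO_HFD, against 21.7 and 10.3% of all tested genes. Here mt-Atp8 (1.24, SE 0.52), mt-Atp6 (1.32, SE 0.91) and mt-Nd2 (−0.40, SE 0.30) had the smallest p, again with an edgeR adjusted p of 1.00. mt-Atp8 averaged 14.7 ± 5.80 CPM in ApoeKO_HFD (n = 3) and 6.21 ± 0.343 in WT_HFD (n = 2).

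The interaction asks whether the diet difference depends on the genotype label, as ApoeKO_HFD over ApoeKO_CD set against WT_HFD over WT_CD. edgeR called 0 of 31 genes, where 0.219% of all tested genes were called and 0.0472% called in the negative direction. At an unadjusted p under 0.05 there were 6, against 8.2% of all tested genes. DESeq2 called 1 (mt-Ti) and voom 2 (mt-Ti and mt-Tm), where they called 0.143 and 0.366% of all tested genes. mt-Ti had an interaction of 1.99 (SE 0.46, edgeR adjusted p = 0.143), mt-Tf of 4.33 (SE 1.08, adjusted p = 0.185) and mt-Tm of 2.18 (SE 0.65, adjusted p = 0.395). Of the 10 plus-strand tRNA genes 9 lay above 0 with a median of 1.86, and the minus-strand tRNA genes had a median of 0.39. The interaction uses the same WT_CD libraries as the comparisons above. The plus-strand median was 0.30 in ApoeKO_HFD against ApoeKO_CD and −1.74 in WT_HFD against WT_CD. The value of 1.86 is therefore not an observation separate from the high WT_CD values.

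Some short nuclear RNAs were also lower in groups set against WT_CD. The 102 tested nuclear genes of at most 150 bases, among them 43 microRNA, 28 snoRNA and 15 snRNA genes, had median log2 changes of −0.58 in ApoeKO_HFD, −0.49 in ApoeKO_CD and −0.53 in WT_HFD, each against WT_CD. Of these, 4, 7 and 3 were called lower and 0 higher, and 16 (15.7%) had all WT_CD libraries above the 8 others. Below 0 were 75, 72 and 68 of the 102 in those comparisons, and the set as a whole was not tested. Levels on the loci Mir6236, Lars2 and Gm42418 were higher in WT_CD too. They were 51.6 to 115, 56.5 to 105 and 903 to 1610 CPM over the 8 other libraries and 208 to 395, 154 to 341 and 2157 to 4317 CPM in WT_CD. Which RNA the reads on these loci came from was not tested. The 8 cardiomyocyte markers summed to 38080 to 44140 CPM in ApoeKO_HFD, 43270.0 to 45120 in ApoeKO_CD, 38420 to 41280 in WT_HFD and 48360 to 51830 in WT_CD. The 4 adipocyte markers were close to 0 throughout, with sums of 0.149 to 0.407 CPM in ApoeKO_HFD, 0.119 to 0.202 in ApoeKO_CD and 0.164 to 0.178 in WT_HFD, and 0.432 to 0.791 in WT_CD. The part of these in the tRNA result was not tested.

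The nuclear genes that replicate, transcribe and process the mitochondrial genome did not pass the test in any of the 6 comparisons. Of 52 genes listed, 51 were matched and tested, and edgeR called 0 of them each time. Of all tested genes it called only 0.0472 to 0.508% in a comparison, so the lack of calls is not particular to this list. At an unadjusted p under 0.05 there were 5 in ApoeKO_HFD against WT_CD, 0 in ApoeKO_HFD against ApoeKO_CD, 7 in WT_HFD against WT_CD, 6 in ApoeKO_CD against WT_CD, 0 in ApoeKO_HFD against WT_HFD and 2 in the interaction. As shares of all tested genes, 14.2, 1.53, 12.9, 15.9, 2.83 and 8.2% reached that level in the same order. DESeq2 called 1, Trmu in ApoeKO_CD against WT_CD, where it called 0.797% of all tested genes. By voom 0 of the list were called, and 0.1 to 0.372% of all tested genes in a comparison. Their median log2 changes lay between −0.02 and 0.10.

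The smallest p in the list went to few genes. Trmu, which thiolates mitochondrial tRNAs, averaged 4.26 ± 0.0613 CPM in ApoeKO_HFD, 4.04 ± 0.332 in ApoeKO_CD, 4.46 ± 0.687 in WT_HFD and 6.62 ± 1.54 in WT_CD (log2 change in ApoeKO_CD against WT_CD −0.70, SE 0.19, edgeR adjusted p = 0.0943). Fastkd1, of a family of mitochondrial RNA-binding proteins, averaged 11.3 ± 0.595, 11.03 ± 0.657 and 11.1 ± 1.23 CPM in ApoeKO_HFD, ApoeKO_CD and WT_HFD and 7.98 ± 1.75 in WT_CD. Trmt10c, a subunit of mitochondrial RNase P, averaged 6.45 ± 1.06, 5.97 ± 1.06 and 5.75 ± 0.846 CPM in the same groups and 3.87 ± 1.66 in WT_CD. Tfam, which packages mitochondrial DNA and helps to start its transcription, had 11.75 to 14.03 CPM in ApoeKO_HFD, 11.73 to 12.26 in ApoeKO_CD, 12.49 to 13.61 in WT_HFD and 8.002 to 11.77 in WT_CD. Twnk, the replicative helicase, averaged 14.7 ± 0.458, 13.8 ± 1.04 and 13.03 ± 0.912 CPM and 17.4 ± 1.08 in WT_CD.

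The calls in the list depended on 1 library, as did those of all tested genes. Without WT_CD replicate 2, edgeR called 6 of these genes in ApoeKO_HFD against WT_CD, 8 in ApoeKO_CD against WT_CD and 8 in WT_HFD against WT_CD, while 7.79, 10.8 and 6.09% of all tested genes were called. With all 11 libraries those shares were 0.154, 0.508 and 0.207%. Fastkd1, Fastkd2, Grsf1, Ptcd3, Tfam and Trmt10c were called higher in all 3 comparisons, and Trmu was called lower in ApoeKO_CD. The 3 comparisons come from 1 fit and share the same remaining WT_CD libraries, so they are not separate observations. Among the mitochondrial genes they called 3, 5 and 4, all plus-strand tRNA genes and all lower.

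In the other comparisons the 3 genes of smallest p were likewise short of the threshold. In ApoeKO_HFD against ApoeKO_CD they were Fastk, Trit1 and Fastkd5, with 61.3 ± 4.41, 2.13 ± 0.312 and 0.775 ± 0.362 CPM in ApoeKO_HFD and 54.5 ± 4.99, 1.70 ± 0.138 and 0.527 ± 0.00930 in ApoeKO_CD. In ApoeKO_HFD against WT_HFD they were Polg2, Polg and Mterf4, with 3.51 ± 1.03, 31.1 ± 1.54 and 2.90 ± 0.465 CPM in ApoeKO_HFD and 6.47 ± 1.66, 26.3 ± 0.552 and 3.601 ± 0.369 in WT_HFD. Polg and Polg2 are the subunits of the mitochondrial DNA polymerase.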

How the data were processed

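Cardiomyocyte RNA was prepared with the SMART-Seq Stranded kit, per the labels' protocols. The submitters' processing notes name GRCm38 (mm10) and the tools HTSeq 0.13.5, STAR 2.7a and Trimmomatic 0.39; strand and multi-mapping settings are not given in the sources used here. The authors deposited whole-number counts per gene, without normalization. Of 55335 identifiers, 55154 matched a symbol in GENCODE M21.

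WT_HFD replicate 3 was left out by the rule that defines the genes, which leaves 2 libraries in WT_HFD. edgeR 4.0.16 in R 4.3.3 was used with TMM scaling, filterByExpr by group and its two-sided quasi-likelihood test (robust), modelling each group by its own mean. The filter left 16932 genes, with 7 residual degrees of freedom; p-values were adjusted by the Benjamini-Hochberg method over all of them within each of 6 comparisons. SEs are the absolute log2 change divided by the square root of F. The test was tried on counts simulated from its own fitted model, with changes put only into genes of higher counts. That simulation therefore does not cover tRNA genes of few counts, such as mt-Tf. The genes and lists were chosen with earlier results of these data known.

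Values were given for the 13 protein genes, the 2 rRNAs and tRNA genes with an unadjusted p under 0.05 in some comparison, and full statistics for called genes or, where fewer than 3 were called, the 3 of smallest p. mt-Tq, mt-Ty and mt-Tp were added after their values were seen. Nuclear copies were annotated transcripts aligned by BLAST 2.17.0 at 95% identity or more over at least 100 bases; no genome sequence was used. Within each group, replicates differed by more than counting noise (chi-square over its degrees of freedom, 24.5 to 190). Alternatives were RLE scaling, library totals, nuclear or mitochondrial scaling, 2 other filters, DESeq2 1.42.0, limma 3.58.1 voom, a replicate block, the compared groups alone, 12 libraries, each library left out and, for the mitochondrial share, protein genes alone or no rRNA counts.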

Additional observations from a re-analysis of the deposited data

Results flagged for a closer look

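WT_HFD replicate 3, which entered no comparison, held signal that the other libraries do not show. mt-Nd6, the protein gene on the minus strand, took 35.9% of its mitochondrial counts and mt-Ty 14.9%, against 0.145 to 0.338% and 0.00761 to 0.0176% in the 11 libraries used. Genes of the minus strand took 53.5% of its mitochondrial counts. The file holds 1347110 counts, and its column header is the same as that of ApoeKO_CD replicate 1. Whether it holds reads counted on the opposite strand was not tested here.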

How the results depend on the processing

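The number of mitochondrial genes called moved with the method, and each call in the 3 comparisons against WT_CD was of a lower value. For ApoeKO_HFD against WT_CD, where 1 gene was called, DESeq2 and no filter each called 4, library totals and mitochondrial scaling each 3, voom 2 and all 12 libraries 0. Of all tested genes these fits called, in that order, 0.343, 0.605, 0.154, 0.0709, 0.1 and 0%. For WT_HFD against WT_CD, with 1 called, DESeq2, no filter and library totals each called 3, mitochondrial scaling 4, voom 2 and 12 libraries 0. Their shares of all tested genes were 0.27, 0.556, 0.171, 0.118, 0.213 and 0.00614%. For ApoeKO_CD against WT_CD, with 3 called, DESeq2 and mitochondrial scaling each called 5, no filter 6, the compared groups alone 1 and 12 libraries 0, and the 5 of DESeq2 did not include mt-Tf. Here 0.797, 0.148, 0.97, 0.269 and 0.0184% of all tested genes were called. For the interaction, with 0 called, DESeq2, mitochondrial scaling (mt-Atp6) and the replicate block each called 1, voom and library totals 2 and no filter 3. The shares of all tested genes were 0.143, 0.112, 0.159, 0.366, 0.165 and 0.215%. Leaving out 1 library gave 0 to 3, 0 to 4 and 1 to 5 in those comparisons, 0 to 2 in the interaction, and 0 to 0 in ApoeKO_HFD against ApoeKO_CD and against WT_HFD. Where such fits kept at least 2 libraries a group, the share of all tested genes called also moved. It was 0 to 7.79% in ApoeKO_HFD, 0.13 to 6.09% in WT_HFD and 0.217 to 10.8% in ApoeKO_CD, each against WT_CD. In the interaction it was 0.133 to 1.7%. The cause of these movements was not tested. In the 3 comparisons against WT_CD, the only called gene that is not a plus-strand tRNA gene was mt-Atp6, under mitochondrial scaling in WT_HFD and ApoeKO_CD. In the interaction, mt-Atp8 was called beside mt-Ti without ApoeKO_CD replicate 1. No log2 change of a gene given with full statistics changed sign. The median of plus-strand tRNA genes stayed below 0 against WT_CD under every setting run, at −1.88 to −0.73 in ApoeKO_HFD, −2.24 to −0.87 in ApoeKO_CD and −2.24 to −1.29 in WT_HFD. Mitochondrial scaling moved the median of all genes by −0.23 in ApoeKO_HFD against ApoeKO_CD, −0.20 in WT_HFD against WT_CD, 0.16 in ApoeKO_CD against WT_CD and 0.14 in ApoeKO_HFD against WT_HFD. Library totals moved it by −0.12 and −0.10 in the first pair of these. Over all genes, the 3 comparisons against WT_CD gave 26, 35 and 86 calls among 16932 tested genes. These became 168, 132 and 390 among 48951 genes with DESeq2, and 296, 272 and 475 among 48951 with no filter. Same-numbered libraries did not deviate together, since 2 of 15 pairs correlated above 0.1 (−0.239 to 0.208). The replicate block called 1 gene in ApoeKO_HFD and in WT_HFD against WT_CD and 2 in ApoeKO_CD, where mt-Tf was lost (edgeR adjusted p = 0.0753). It called 0.0827, 0.112 and 0.36% of all tested genes in the same order.

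The mitochondrial share differed by −6.34 points for WT_HFD against WT_CD, 8.39 for ApoeKO_HFD against WT_HFD and 10.4 for the interaction (−0.16 with 11 libraries) when all 12 libraries were used. Leaving out 1 library gave −1.80 to 6.13 points for ApoeKO_HFD against WT_CD, 0.02 to 8.95 for ApoeKO_HFD against ApoeKO_CD, 2.12 to 5.64 for WT_HFD against WT_CD, −6.91 to 2.02 for ApoeKO_CD against WT_CD, −6.02 to 1.91 for ApoeKO_HFD against WT_HFD and −4.19 to 4.74 for the interaction. Counting the 7 copies on chromosome 1 with the genes, an alternative chosen after seeing the data, gave 2.04 points for ApoeKO_HFD against WT_CD. With the 13 protein genes alone that difference was −2.16 points. Depth limits the short genes: 6 tRNA genes could not be tested, and mt-Tf and mt-Th rest on few counts.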

Other observations

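Less similar copies of mitochondrial genes elsewhere in the nuclear genome also held counts. Gm13340 on chromosome 2, with 97.6% identity to mt-Co1 over its 1545 bases, had 705 to 1949 counts a library over the 11 libraries. Gm13341 beside it (95.9% identity to mt-Co2) had 93 to 272, Gm13339 (96.7% to part of mt-Nd2) 108 to 431, and Gm4076 on chromosome 13 (95.2% to part of mt-Nd5) 79 to 372.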
